A study of Mus musculus with 6 samples.

Results

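The 36 genes described here are a chosen list of matrix, elastic fibre and mesenchymal genes with the working name meningeal and fibroblast matrix genes, out of 22869 gene symbols in the deposited count table. Each was found by its symbol, the collagens were kept out, and 1 transcript row per symbol was used. RNA was sequenced from cells of E14.5 mouse embryos in 6 libraries. Midline libraries 2, 3 and 5 (numbered as the replicates) hold roof plate-derived cells of the dorsal column midline, cut by laser capture from frozen spinal cord of wild-type embryos of mixed strain. Mechanoreceptor libraries 2, 8 and 9 hold cells from the dorsal root ganglia of mixed-strain embryos with Ret-CreERT2 and Rosa26-Tdtomato, whose mothers received 4-hydroxytamoxifen by gavage at 1.5 and 2 mg. In these embryos the Ret promoter drives a Cre that tamoxifen switches on, and the Tdtomato+ cells, the Ret+ RA mechanoreceptors of the labels, were sorted. Cell type therefore coincided with tissue, capture method, genotype and tamoxifen, and these cannot be told apart. The labels do not say whether replicates came from separate embryos, so each p-value reflects no more than the spread among these libraries, part of which may be technical.

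Fibroblasts and the meninges around the brain and spinal cord build a matrix of collagen fibrils, elastic fibres and adhesive glycoproteins. Small leucine-rich proteoglycans bind collagen and set fibril width, fibrillins and fibulins scaffold the deposition of elastin, and lysyl oxidases crosslink both collagen and elastin. Mesenchymal transcription factors such as Twist1 and Prrx1 mark the cells that make much of this matrix, in limb, head and body wall mesenchyme.

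Library totals over all transcript rows were 5599811 to 8081153 counts in the midline and 12031898 to 13801474 counts in the mechanoreceptors, and 3 counts were worth between 0.346 and 0.669 CPM (counts scaled to library size with TMM factors). Of the sensory neuron markers, 11 of 14 were higher in the mechanoreceptors and 1 was higher in the midline. All 13 tested roof plate and dorsal radial glia markers were higher in the midline. In each mechanoreceptor library 4 of the 14 listed were at 0, and such genes may have entered the test through the midline alone. The label's name was checked against separate lists. Of 16 tested meningeal fibroblast markers, 4 were higher in the midline (Col15a1, Cxcl12, Mgp and Bmp5), 1 (Crym) was higher in the mechanoreceptors, and 11 were not called, among them Aldh1a2, Cldn11, Slc6a13, Gjb2 and Gjb6. Of 12 general fibroblast markers, 6 were higher in the midline, including Pdgfra, Pdgfrb, Fap and Dpt, and 1 (Thy1) was higher in the mechanoreceptors. As a median, the log2 fold change of midline over mechanoreceptors was 0.20 over the meningeal list and 1.99 over the fibroblast list. Most of the meningeal markers were thus not called, but the same held for 9526 of all 15314 genes tested. Over all genes tested, 18.9% were higher in the midline and 18.8% higher in the mechanoreceptors. The meningeal counts lie near these shares and do not settle the name, so the 36 genes are called matrix and mesenchymal genes below.

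The matrix and mesenchymal genes were more abundant in the captured midline than in the sorted mechanoreceptors in all 5 role groups, by their summed level and their median log2 fold change. Their summed level was 6831, 2020 and 3747 CPM in midline libraries 2, 3 and 5, against 683, 549 and 557 CPM in mechanoreceptor libraries 2, 8 and 9. The lowest midline library thus stood above the highest mechanoreceptor library, and the means were 4199 ± 2437 and 596 ± 75.2 CPM (SD, n = 3 each), a ratio of 7.04. Of the 36 genes, 32 passed the filter on low counts and were tested with the quasi-likelihood test of edgeR. At an adjusted p under 0.05 (Benjamini-Hochberg over all 15314 genes tested), 26 were higher in the midline, 0 were higher in the mechanoreceptors and 6 were not called. Over all genes tested, 37.8% were called in either direction, 18.9% higher in the midline and 18.8% higher in the mechanoreceptors. Without adjustment, at p under 0.05, 29 of the 32 were higher in the midline and 0 in the mechanoreceptors. The share of all genes at that unadjusted mark was not counted and is at least the adjusted share. DESeq2 and limma-voom also called 0 of the 36 genes higher in the mechanoreceptors. The median log2 fold change of the tested genes was 3.11, against 0.05 over all genes tested. In 25 of the 32 every midline library was above every mechanoreceptor library, which held for 27.6% of all genes tested. The reverse, every mechanoreceptor library above every midline library, held for 0 of the 32 and for 27.3% of all genes.

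The low-count filter can favour genes that are high in 1 group alone. Of the 32 tested genes, 6 had no mechanoreceptor library at the filter's level of 1.40 CPM, namely Loxl1, Twist1, Prrx2, Tbx15, Tbx18 and Meox2, and such genes could enter the test only through the midline. The 17 genes with all 6 libraries at that level had 13 calls higher in the midline. Among the 12293 genes of that kind in the whole table, 14.7% were called higher in the midline. In bulk RNA, fewer cells of a type and less RNA per cell cannot be told apart, and this touches every level given here.

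**Figure D1:**
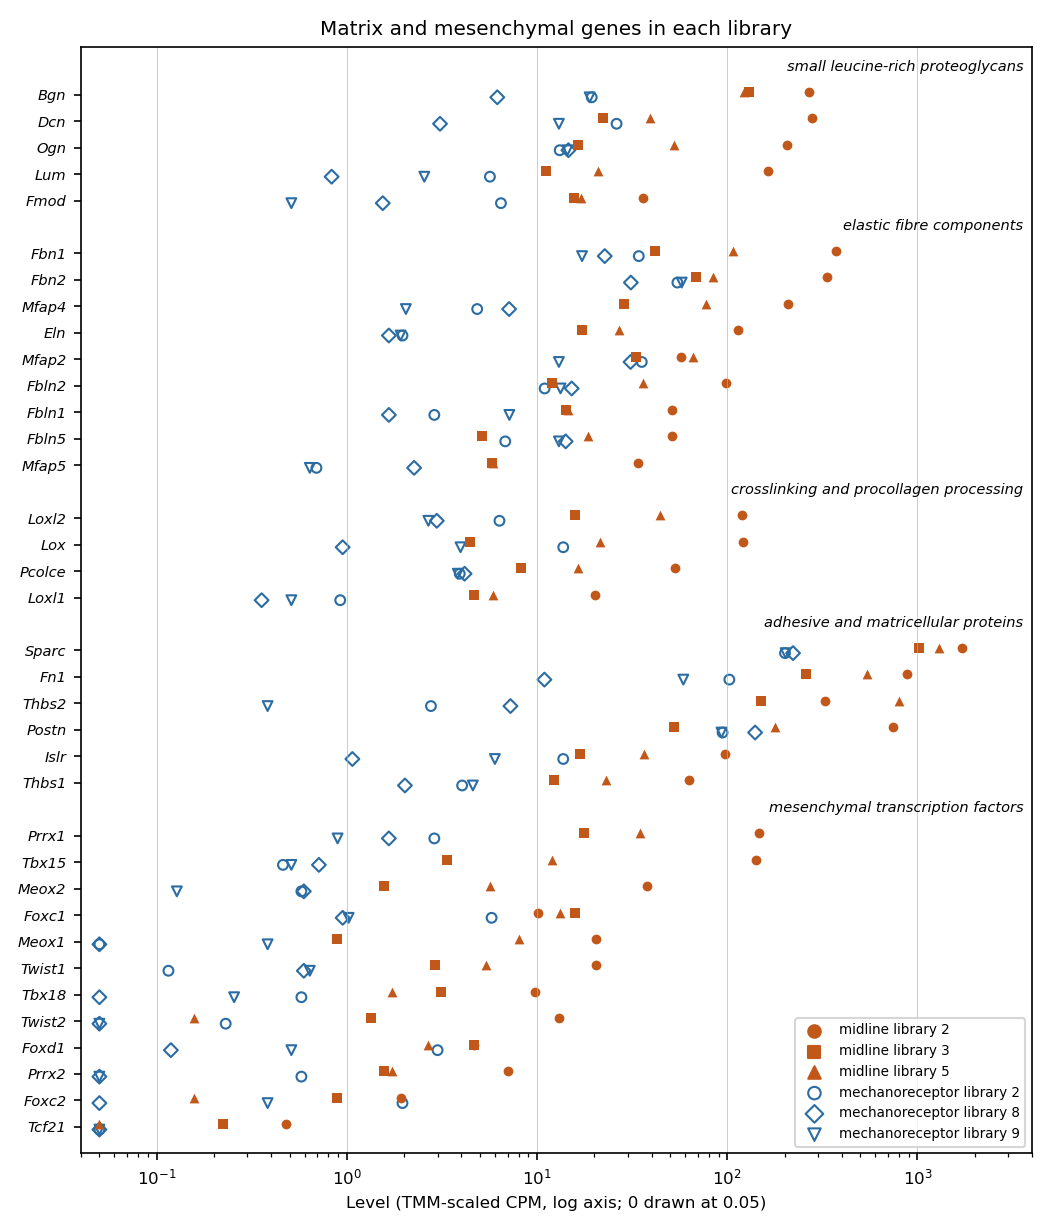
Level of each of the 36 genes in each of the 6 libraries, in TMM-scaled CPM on a log axis, grouped by role; filled orange symbols are midline libraries and open blue symbols mechanoreceptor libraries, with 0 drawn at 0.05. In 25 of the 32 tested genes all midline symbols lie to the right of all mechanoreceptor symbols, and midline library 2 (circles) is the rightmost in 28.

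Small leucine-rich proteoglycans, which bind collagen fibrils and growth factors, were higher in the midline in 4 of 5 genes. Biglycan (Bgn) had 270, 130 and 122 CPM in the midline libraries, against 19.4, 6.18 and 18.9 CPM in the mechanoreceptor libraries. Every midline library was far above every mechanoreceptor one, and the log2 fold change was 3.55 ± 0.51 (SE; adjusted p = 0.00189). Osteoglycin (Ogn), a proteoglycan of bone and other connective tissue, had 206, 16.5 and 52.6 CPM in the midline and 13.1, 14.6 and 14.4 CPM in the mechanoreceptors. Its groups nearly touched through midline library 3, with a log2 fold change of 2.71 ± 0.78 (adjusted p = 0.0269). In the RefSeq annotation Ogn overlaps Cenpp, and since strand is not stated for these counts, reads of the pair may be shared.

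Lumican (Lum), which regulates fibril spacing in cornea and skin, had 163, 11.2 and 20.99 CPM in the midline and 5.65, 0.832 and 2.55 CPM in the mechanoreceptors. The groups did not overlap, and the log2 fold change was 4.43 ± 1.12 (adjusted p = 0.0169). Fibromodulin (Fmod), a collagen-binding proteoglycan of tendon, had 36.2, 15.6 and 17.0 CPM in the midline, against 6.46, 1.54 and 0.511 CPM in the mechanoreceptors, a log2 fold change of 3.002 ± 0.81 (adjusted p = 0.0217). Decorin (Dcn), the best known proteoglycan of collagen fibrils, was the exception. It had 280, 22.3 and 39.5 CPM in the midline and 26.2, 3.09 and 13.0 CPM in the mechanoreceptors, so that midline library 3 lay below mechanoreceptor library 2. Its log2 fold change of 3.01 ± 1.05 did not pass the test (adjusted p = 0.0530), and it passed with DESeq2 (adjusted p = 0.0374) and without midline library 3 (adjusted p = 0.0194) or 5 (adjusted p = 0.0491).

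Within this group the call of Bgn alone held when any 1 library was left out. Without midline library 2 the log2 fold change of Ogn was 1.28 (adjusted p = 0.0520), and leaving out any 1 mechanoreceptor library gave adjusted p-values of 0.0852 to 0.0947. Lum lost its call without mechanoreceptor library 8 (adjusted p = 0.0616) or 9 (adjusted p = 0.0701), and Fmod without mechanoreceptor library 8 (adjusted p = 0.0804). The log2 fold change of Lum was 2.38 without midline library 2, and that of Dcn was 1.10. Limma-voom did not call Lum (adjusted p = 0.0706) or Ogn (adjusted p = 0.0859).

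Elastic fibre components were higher in the midline in 7 of 9 genes. Elastin (Eln), the rubber-like core protein of the fibre, had 114, 17.2 and 26.8 CPM in the midline, against 1.96, 1.66 and 1.92 CPM in the mechanoreceptors. The mechanoreceptor libraries were close to each other and far below all midline libraries, with a log2 fold change of 4.82 ± 0.77 (adjusted p = 0.00283). Mfap4, a fibre-associated glycoprotein that binds elastin and collagen, had 208, 28.8 and 77.3 CPM in the midline and 4.84, 7.13 and 2.04 CPM in the mechanoreceptors. Its log2 fold change was 4.48 ± 0.77 (adjusted p = 0.00390), and both calls held whichever library was left out.

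The fibrillins form the microfibrils on which elastin is laid down. Fbn1 had 373, 41.9 and 107 CPM in the midline and 34.3, 22.7 and 17.2 CPM in the mechanoreceptors, without overlap, and its log2 fold change was 2.82 ± 0.72 (adjusted p = 0.0181). Fbn2, a fibrillin used mostly during development, had 333, 68.5 and 84.5 CPM in the midline and 54.7, 31.1 and 57.6 CPM in the mechanoreceptors. Mechanoreceptor libraries 2 and 9 came close to midline library 3, and the log2 fold change was 1.76 ± 0.59 (adjusted p = 0.0475). Without midline library 2 these values were 1.57 (adjusted p = 0.0204) for Fbn1 and 0.65 (adjusted p = 0.122) for Fbn2. Fbn1 lost its call without mechanoreceptor library 8 (adjusted p = 0.0694) or 9 (adjusted p = 0.0747), and Fbn2 without any 1 mechanoreceptor library (adjusted p from 0.104 to 0.152) and with limma-voom (adjusted p = 0.0705).

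The fibulins tether elastin to microfibrils and cells. Fbln1 had 51.0, 14.3 and 14.52 CPM in the midline and 2.88, 1.66 and 7.15 CPM in the mechanoreceptors, a log2 fold change of 2.77 ± 0.71 (adjusted p = 0.0175). Its call ended without mechanoreceptor library 2 (adjusted p = 0.0726) or 8 (adjusted p = 0.0605), and its log2 fold change was 1.85 without midline library 2. Fbln2 was called (log2 fold change 1.90 ± 0.64, adjusted p = 0.0485) although its groups overlapped, with 98.8, 12.0 and 36.1 CPM in the midline and 10.96, 15.2 and 13.3 CPM in the mechanoreceptors. That call ended in every fit that left out 1 library other than midline library 3, and without midline library 2 the log2 fold change was 0.86 (adjusted p = 0.173). The adjusted p-values of Fbln2 without mechanoreceptor libraries 2, 8 and 9 were 0.148, 0.111 and 0.128, without midline library 5 it was 0.0657, and limma-voom gave 0.109. Fbln5, which elastic fibre assembly requires, was not called, with 51.2, 5.13 and 18.6 CPM in the midline and 6.80, 14.1 and 13.0 CPM in the mechanoreceptors. Midline library 3 was its lowest library of all, and the log2 fold change was 1.15 ± 0.71 (adjusted p = 0.233), which was 0.06 without midline library 2 and passed without midline library 3 (adjusted p = 0.0346).

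The microfibril-associated glycoproteins Mfap2 and Mfap5 bind fibrillin. Mfap5 had 34.0, 5.80 and 5.84 CPM in the midline and 0.692, 2.26 and 0.639 CPM in the mechanoreceptors, a log2 fold change of 3.65 ± 0.90 (adjusted p = 0.0154). Its call ended without midline library 2 (log2 fold change 2.24, adjusted p = 0.0509) and without mechanoreceptor library 2 (adjusted p = 0.0660) or 9 (adjusted p = 0.0630). Mfap2 was not called, with 57.3, 33.2 and 65.7 CPM in the midline against 35.5, 31.0 and 13.0 CPM in the mechanoreceptors, and the groups overlapped. Its log2 fold change of 0.97 ± 0.41 (adjusted p = 0.0934) was the smallest of the 32 tested genes and barely moved without midline library 2 (0.88). It passed without midline library 3 (adjusted p = 0.0442) and under upper-quartile scaling (adjusted p = 0.0481).

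Enzymes that crosslink or trim the fibres were higher in the midline in 3 of 4 genes. The lysyl oxidases oxidise lysines of collagen and elastin so that the chains can be joined. Loxl2 had 119, 15.8 and 44.5 CPM in the midline and 6.34, 2.97 and 2.68 CPM in the mechanoreceptors, and Loxl1, which acts on elastin, had 20.2, 4.68 and 5.84 CPM against 0.923, 0.356 and 0.511 CPM in the mechanoreceptors. Neither gene's groups overlapped, the log2 fold changes were 3.90 ± 0.74 (adjusted p = 0.00580) for Loxl2 and 4.06 ± 0.77 (adjusted p = 0.00555) for Loxl1, and both calls held whichever library was left out. Loxl1 passed the low-count filter through the midline alone, so its call is a description only. Lox, the founding enzyme of the family, had 121, 4.46 and 21.3 CPM in the midline and 13.7, 0.950 and 3.96 CPM in the mechanoreceptors. Midline library 3 was below mechanoreceptor library 2, and Lox was not called (log2 fold change 2.98 ± 1.21, adjusted p = 0.0854). Without midline library 2 it was 1.03 (adjusted p = 0.431), and without midline library 3 it passed (adjusted p = 0.0245). Pcolce, which speeds the removal of the procollagen C-terminal propeptide, had 53.1, 8.25 and 16.4 CPM in the midline against 3.92, 4.16 and 3.83 CPM in the mechanoreceptors. Its groups did not overlap, and the log2 fold change of 2.71 ± 0.66 (adjusted p = 0.0144) lost its call without any 1 mechanoreceptor library (adjusted p from 0.0528 to 0.0576). It was 1.61 without midline library 2.

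Adhesive and matricellular proteins, which link cells to the matrix or act as signals within it, were higher in the midline in 5 of 6 genes. Sparc, a collagen-binding glycoprotein, had 1716, 1017 and 1302 CPM in the midline and 201, 222 and 203 CPM in the mechanoreceptors. The log2 fold change was 2.69 ± 0.26 (adjusted p = 0.000503), with the smallest SE of the 32 tested genes, and was 2.45 without midline library 2. Sparc alone made up 25.1% to 50.4% of the summed level of the 36 genes in the midline libraries and 29.4% to 40.4% in the mechanoreceptor libraries. Fibronectin (Fn1), which cells bind through integrins, had 884, 261 and 542 CPM in the midline and 103, 10.9 and 58.7 CPM in the mechanoreceptors. Its groups did not overlap (log2 fold change 3.29 ± 0.77, adjusted p = 0.0126), and the call ended without mechanoreceptor library 9 (adjusted p = 0.0550).

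The thrombospondins bind matrix, integrins and growth factors, and in the nervous system they are known as astrocyte proteins that promote synapse formation. Thbs2 had 325, 151 and 804 CPM in the midline and 2.77, 7.25 and 0.383 CPM in the mechanoreceptors. Midline library 5 was the highest here, not library 2, and the log2 fold change of 6.93 ± 1.001 (adjusted p = 0.00196) was the largest of the 32 tested genes. It was 7.07 without midline library 2 and its call held in all 6 fits that left out 1 library. Thbs1 had 62.6, 12.3 and 23.05 CPM in the midline and 4.04, 2.02 and 4.60 CPM in the mechanoreceptors, also without overlap. Its log2 fold change was 3.20 ± 0.64 (adjusted p = 0.00712), and its call too held in all 6 of these fits.

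Periostin (Postn), a matricellular protein of periosteum and of embryonic mesenchyme, was abundant in both groups and not called. It had 741, 52.4 and 177 CPM in the midline and 94.5, 140 and 93.2 CPM in the mechanoreceptors, so that midline library 3 lay below every mechanoreceptor library. The log2 fold change was 1.57 ± 0.78 (adjusted p = 0.148), 0.05 without midline library 2 and past the test without midline library 3 (adjusted p = 0.0152). Islr, a leucine-rich repeat and immunoglobulin-domain protein of mesenchymal stromal cells, had 97.4, 16.7 and 36.3 CPM in the midline and 13.7, 1.07 and 6.002 CPM in the mechanoreceptors. It was called (log2 fold change 2.85 ± 0.88, adjusted p = 0.0355), without overlap. The call ended without midline library 2 (1.91, adjusted p = 0.0927) or 5 (adjusted p = 0.0540) and without mechanoreceptor library 8 (adjusted p = 0.0713) or 9 (adjusted p = 0.115).

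Of the 12 mesenchymal transcription factors, 8 passed the low-count filter and 7 were higher in the midline. Of these 7, 5 (Twist1, Prrx2, Tbx15, Tbx18 and Meox2) passed it through the midline alone and had to differ, so the count is a description only. Prrx1, Foxc1 and Foxd1 also reached the filter's level in the mechanoreceptors. Prrx1, a homeobox factor of limb and craniofacial mesenchyme, had 146, 17.6 and 34.7 CPM in the midline and 2.88, 1.66 and 0.894 CPM in the mechanoreceptors, far apart in every library. Its log2 fold change was 5.17 ± 0.88 (adjusted p = 0.00367). Its relative Prrx2 had 7.06, 1.56 and 1.74 CPM in the midline and 0.577, 0 and 0 CPM in the mechanoreceptors. Its fitted log2 fold change of 4.02 ± 1.23 (adjusted p = 0.0337) rests on mechanoreceptor libraries at or near 0. The call ended without midline library 2 (2.94, adjusted p = 0.129) or 5 (adjusted p = 0.0544) and without mechanoreceptor library 8 (adjusted p = 0.0971) or 9 (adjusted p = 0.0936). Twist1, a basic helix-loop-helix factor that mesoderm and cranial neural crest need, had 20.5, 2.90 and 5.37 CPM in the midline and 0.115, 0.594 and 0.639 CPM in the mechanoreceptors. Its groups did not overlap (log2 fold change 4.38 ± 0.94, adjusted p = 0.00911), and the calls of Twist1 and Prrx1 held whichever library was left out.

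The T-box factor Tbx15, which acts in skeletal and skin mesenchyme, had 142, 3.35 and 12.0 CPM in the midline and 0.461, 0.713 and 0.511 CPM in the mechanoreceptors. Midline library 2 thus held 18.5 times the mean of the other 2 midline libraries, the highest such ratio among the 32 tested genes. The log2 fold change was 6.51 ± 1.45 (adjusted p = 0.0104) with that library and 3.72 (adjusted p = 0.00724) without it, and limma-voom did not call Tbx15 (adjusted p = 0.120). Tbx18, a factor of sclerotome and of epicardial and mural cells, had 9.78, 3.12 and 1.74 CPM in the midline and 0.577, 0 and 0.255 CPM in the mechanoreceptors, a fitted log2 fold change of 4.05 ± 1.06 (adjusted p = 0.0197). The call of Tbx18 ended without midline library 2 (3.01, adjusted p = 0.0760) and without mechanoreceptor library 8 (adjusted p = 0.0521) or 9 (adjusted p = 0.0688). Meox2, a homeobox factor of somites and limb muscle precursors, had 38.0, 1.56 and 5.68 CPM in the midline and 0.577, 0.594 and 0.128 CPM in the mechanoreceptors, again highest in midline library 2. It was called (log2 fold change 5.06 ± 1.23, adjusted p = 0.0146), with 2.996 (adjusted p = 0.0431) without midline library 2. Leaving out any 1 mechanoreceptor library ended the call (adjusted p from 0.0510 to 0.0600), as did limma-voom (adjusted p = 0.0788).

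Foxc1 and Foxd1 did not share the high value in midline library 2. Foxc1, a forkhead factor on which the meninges depend, had 10.1, 15.8 and 13.3 CPM in the midline and 5.77, 0.950 and 1.02 CPM in the mechanoreceptors. Midline library 2 was its lowest midline library, and the log2 fold change was 2.32 ± 0.71 (adjusted p = 0.0346), or 2.45 without that library. Its call ended without midline library 3 (adjusted p = 0.0687) or 5 (adjusted p = 0.0742) and without mechanoreceptor library 8 (adjusted p = 0.0986) or 9 (adjusted p = 0.0999). Foxd1, best known from the kidney stroma, had 4.65, 4.68 and 2.68 CPM in the midline and 2.999, 0.119 and 0.511 CPM in the mechanoreceptors. It was not called (log2 fold change 1.70 ± 0.95, adjusted p = 0.189) and passed without mechanoreceptor library 2 (adjusted p = 0.0293).

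Twist2, Foxc2, Meox1 and Tcf21 were too low for the filter and were not tested in the fit of all 6 libraries. Where leaving out a library lowered the filter's demand, Meox1 was called in 4 of these fits (adjusted p from 0.00224 to 0.0499) and Twist2 in 1, without midline library 5 (adjusted p = 0.0184). Both genes were below the filter's level in every mechanoreceptor library and could enter these fits only through the midline. Their calls are therefore a description only. Meox1, a somite homeobox factor, had 20.5, 0.892 and 8.05 CPM in the midline and 0, 0 and 0.383 CPM in the mechanoreceptors. These were 183 counts against 3, a ratio of 89.1 after scaling, with an exact 95% interval from 30.03 to 436 that covers counting error only. Twist2, a relative of Twist1 expressed in dermal fibroblasts, had 13.0, 1.34 and 0.158 CPM in the midline and 0.231, 0 and 0 CPM in the mechanoreceptors. Its 88 counts against 2 gave a ratio of 64.3 with an interval from 17.3 to 539, and most of them came from midline library 2. Foxc2, a relative of Foxc1, had 1.92, 0.892 and 0.158 CPM in the midline and 1.96, 0 and 0.383 CPM in the mechanoreceptors, with full overlap. Tcf21, a factor of epicardial and organ fibroblast precursors, had 4 counts over the midline libraries and 0 counts over the mechanoreceptor libraries, near the floor of 3 counts.

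**Figure D2:**
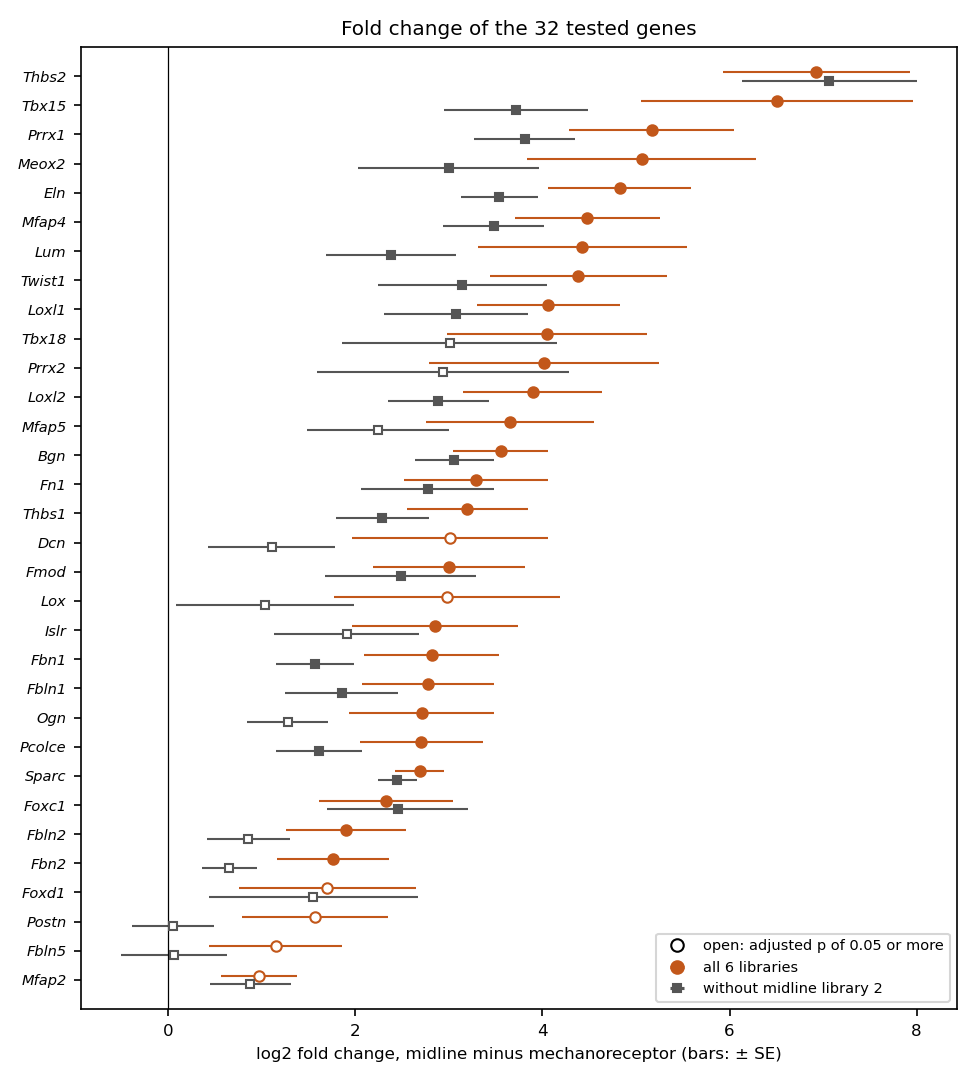
Log2 fold change, midline minus mechanoreceptor, of the 32 tested genes, with all 6 libraries (orange circles) and without midline library 2 (grey squares); bars are ± SE and open symbols have an adjusted p of 0.05 or more. All circles lie right of 0, and 30 of the 32 squares lie left of their circle, with Thbs2 and Foxc1 the exceptions.

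Per kilobase of transcript, which allows levels to be compared between genes, Sparc led in both groups, with 585 ± 153 CPM per kb in the midline and 90.7 ± 4.96 CPM per kb in the mechanoreceptors (SD, n = 3 each). In the midline Postn (101 ± 114 CPM per kb), Thbs2 (72.4 ± 57.4), Bgn (71.9 ± 34.5), Fn1 (67.6 ± 37.6) and Dcn (64.7 ± 81.8) came next on that scale. The SDs of these 5 genes exceed the gaps between them, so their order is not resolved. In the mechanoreceptors the next genes on that scale were Postn (34.1 ± 8.33 CPM per kb), Mfap2 (29.8 ± 13.4), Dcn (8.02 ± 6.59) and Fn1 (6.90 ± 5.51). Thbs2, the third gene in the midline, was the 22nd in the mechanoreceptors, at 0.588 ± 0.591 CPM per kb. By their means, Sparc, Postn and Mfap2 thus stood above the other 33 genes in the sorted cells.

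The midline libraries differed among themselves, and midline library 2 had the highest level in 28 of the 32 tested genes. Over all genes tested this library was the highest of the 3 in 35.7%. In 18 of the 32 genes it held at least 4 times the mean of midline libraries 3 and 5, which held for 3.34% of all genes tested. The 4-fold mark and the 2.5-fold mark used next were chosen after the values were seen. The ratio was 2.5 or less in 8 genes, namely Fmod, Bgn, Mfap2, Fn1, Sparc, Thbs2, Foxc1 and Foxd1. Without midline library 2 the summed level averaged 2884 CPM in the midline, 4.84 times that of the mechanoreceptors, and 19 of the 36 genes were called higher in the midline. Over all 32 genes tested with 6 libraries, the median log2 fold change was then 2.42, against 0.00 over all genes tested.

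Markers of other tissues moved with midline library 2. Of the tested skeletal muscle markers 18 of 18 were higher in the midline, against 18.9% of all genes tested. The list summed to 43672, 452 and 4184 CPM in midline libraries 2, 3 and 5 and 29.8 to 59.8 CPM in the mechanoreceptor libraries. Of its 21 genes in the table, 6, 3 and 4 were at 0 in mechanoreceptor libraries 2, 8 and 9. Genes absent from the mechanoreceptors could enter the test only through the midline, so the counts of the marker lists are a description only. Keratinocyte markers (5 of 8 higher) summed to 927, 43.5 and 55.4 CPM in the midline, against 27.9 to 37.1 CPM in the mechanoreceptors. Krt5 was at 0 in 2 mechanoreceptor libraries and Krt15 in all 3. Cartilage markers (10 of 11 higher) summed to 1044, 420 and 659 CPM in the midline, against 63.4 to 106 CPM in the mechanoreceptors, with Acan at 0 in mechanoreceptor libraries 2 and 8. Fibroblast markers summed to 1941, 544 and 593 CPM in the midline and 420 to 504 CPM in the mechanoreceptors. Of the 16 tested meningeal markers, 13 were highest in midline library 2, with a median ratio of 2.52 to the mean of midline libraries 3 and 5, and in 5 the ratio was at least 4. Their sum of 793, 844 and 888 CPM in the midline and 565 to 636 CPM in the mechanoreceptors came mostly from Ptn, which was not called and was lowest in midline library 2. The part of these cell types in the result was not tested.

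Lists of the other cell types behaved in several ways. Beside their counts, 18.9% of all genes tested were higher in the midline and 18.8% higher in the mechanoreceptors. Endothelial markers (11 of 12 higher in the midline) summed to 625, 615 and 644 CPM in the midline and 86.8 to 238 CPM in the mechanoreceptors. Pericyte markers (9 of 11 higher) summed to 839, 383 and 483 CPM in the midline and 21.7 to 42.7 CPM in the mechanoreceptors. Roof plate and dorsal radial glia markers ran the other way, at 1665, 4926 and 6010 CPM in midline libraries 2, 3 and 5 and 185 to 339 CPM in the mechanoreceptors. Macrophage and microglia markers (1 of 11 higher in the midline), erythroid markers (7 of 9 higher in the midline, 1 in the mechanoreceptors) and Schwann cell and satellite glia markers (2 of 10 higher in the midline, 4 in the mechanoreceptors) made up the remaining lists.

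**Figure D3:**
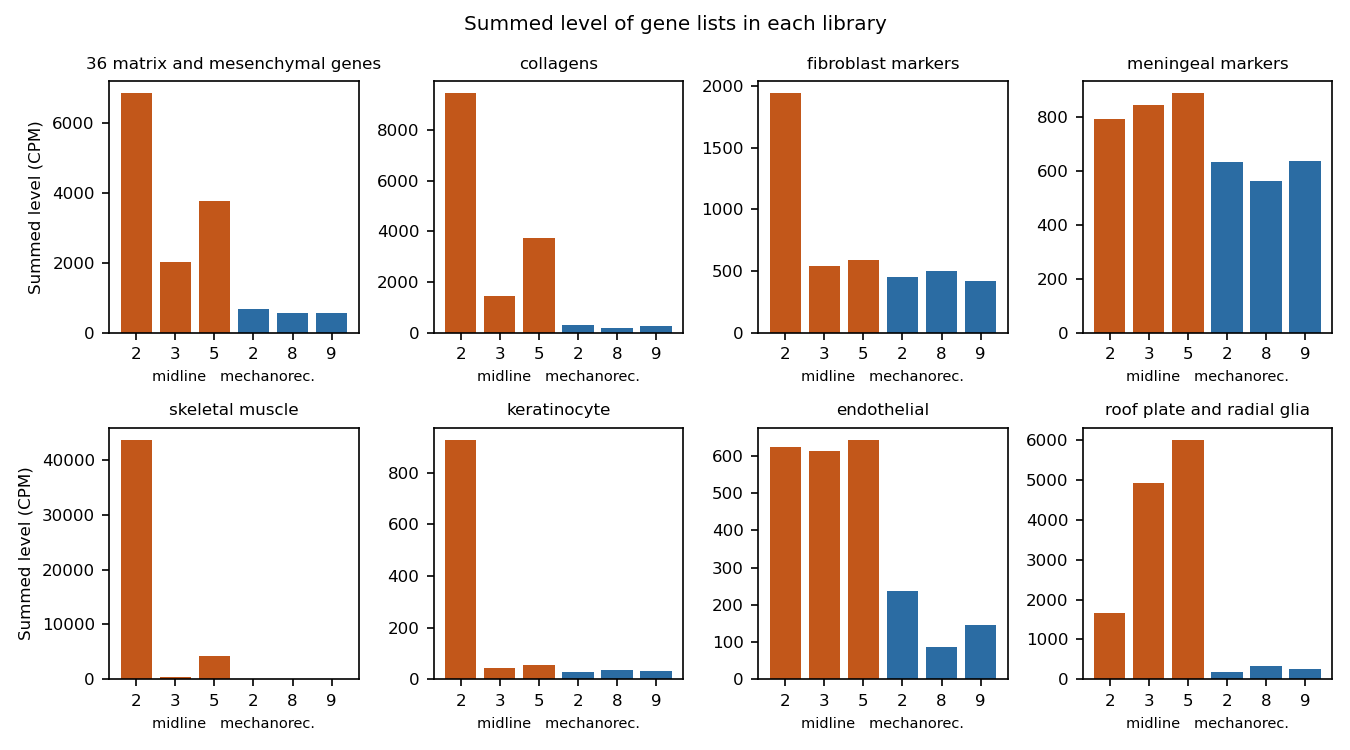
Summed level in CPM of the 36 matrix and mesenchymal genes and of 7 other lists in midline libraries 2, 3 and 5 (orange) and mechanoreceptor libraries 2, 8 and 9 (blue), 1 bar per library, each panel with its own axis from 0. Midline library 2 is the highest for the 36 genes, the collagens and the fibroblast, muscle and keratinocyte markers, but the lowest of the midline libraries for the roof plate markers. It is also the lowest for the sum of the meningeal markers, of which Ptn makes up most, although 13 of the 16 tested are highest there.

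The mechanoreceptor libraries also differed among themselves for some of these genes. Library 2 held at least 4 times the level of library 8 in 8 of the 30 tested genes with a count in library 8, namely Dcn, Lum, Fmod, Lox, Fn1, Islr, Foxc1 and Foxd1. This held for 2.31% of the 15084 such genes in the table. Most of the 8 ratios rest on few counts in library 8. It held 1 count of Foxd1, 7 of Lum, 8 of Lox and of Foxc1, 9 of Islr and 13 of Fmod, against 26 of Dcn and 92 of Fn1. The comparison of these 2 libraries was not planned beforehand. In 12 of the 30 the ratio was 1 or less, among them Sparc, Postn, Pcolce and Twist1. The genes with a high ratio were thus not the whole list. Of the 16 tested meningeal markers, 9 were highest in mechanoreceptor library 2, 2 in library 8 and 5 in library 9, and their sums were 633, 565 and 636 CPM in libraries 2, 8 and 9. Of the 12 endothelial markers 11 were highest in mechanoreceptor library 2, and their sums were 238, 86.8 and 146 CPM. Their part in the result was not tested.

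**Figure D4:**
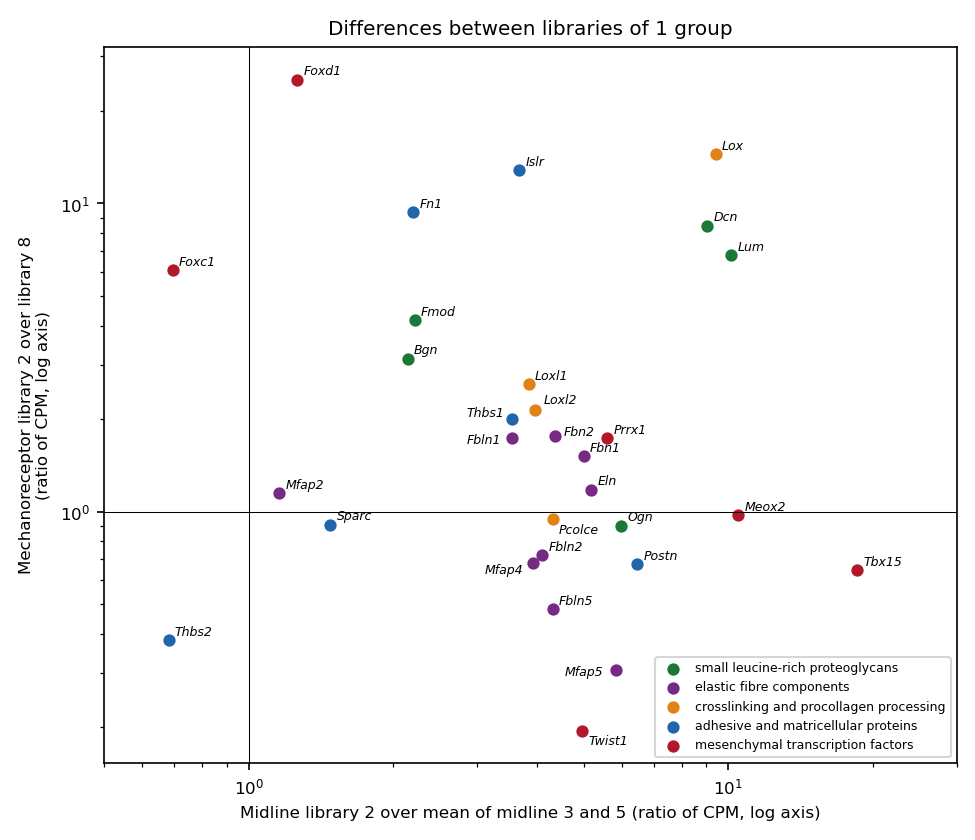
Ratio of midline library 2 to the mean of midline libraries 3 and 5 (x axis) against the ratio of mechanoreceptor library 2 to library 8 (y axis), both of CPM on log axes, 1 point per tested gene with a count in mechanoreceptor library 8, coloured by role. Dcn, Lum and Lox are high on both axes, Foxc1, Foxd1, Fmod and Fn1 are high on the y axis with an x ratio of 2.5 or less, and Tbx15 is farthest to the right.

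Of the 26 called genes, 11 kept their call in all 6 fits that left out 1 library, namely Bgn, Eln, Mfap4, Loxl1, Loxl2, Sparc, Thbs1, Thbs2, Twist1, Prrx1 and Tbx15. That is 42.3% of the called genes, against 49.6% of all genes called higher in the midline. Among the 11, Loxl1, Twist1 and Tbx15 passed the low-count filter through the midline alone, so their calls are a description only. Without mechanoreceptor library 8 or 9, 14 of the 36 genes were called each time, 13 of the 26 and in addition Meox1, which the fit of all 6 libraries did not test. In these fits the share of all genes tested that was called higher in the midline was 11.9% and 12.5%. No fit that left out 1 library tested all 36 genes, while the percentages here are of the genes tested. Without mechanoreceptor library 2, 21 of the 36 genes were called, namely 19 of the 26, Foxd1 and Meox1, against 12.2% of all genes tested. Leaving out midline library 3, which had the lowest midline level in 28 of the 32 tested genes, gave 31 calls, against 18.5% of all genes tested. They were 25 of the 26, Meox1, and Dcn, Fbln5, Mfap2, Lox and Postn, which the fit of all 6 libraries did not call. Without midline library 2 the 19 calls stand against 15.2% of all genes tested, and without midline library 5 the 24 calls stand against 14.1%. All 19 were among the 26, and the 24 were 22 of the 26, Dcn and Twist2. Twist2, like Meox1, was not tested with all 6 libraries and could enter only through the midline. With all 6 libraries, DESeq2 called 27 of the 32 tested genes higher in the midline (22.9% of all genes tested), limma-voom 20 (18.7%), and limma on the deposited log2 values 18 (16.2%). Of the 36 rows kept, 30 had in the authors' deposited table a false discovery rate under 0.05, all 30 with a higher level in the midline, among them Twist2 and Meox1. The share of all genes under that rate was not counted, so these 30 have no background to stand against.

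Those other genes of the same pathways that were called were also mostly higher in the midline. Of all genes tested, 18.9% were higher in the midline. How many of these genes passed the low-count filter through the midline alone was not counted. Of 12 fibrillar and fibril-associated collagens, the main partners of these proteoglycans and enzymes, 10 were higher in the midline and 0 in the mechanoreceptors, with a median log2 fold change of 4.26. Their summed level was 9456, 1448 and 3729 CPM in the midline and 286, 175 and 241 CPM in the mechanoreceptors. Among them Col3a1, which forms thin fibrils with type I collagen, had 2635, 231 and 417 CPM in the midline and 76.1, 20.6 and 40.9 CPM in the mechanoreceptors (log2 fold change 4.58 ± 0.99, adjusted p = 0.00943). Col14a1, a fibril-associated collagen, was highest in midline library 5 as Thbs2 was, with 511, 590 and 1752 CPM in the midline and 16.8, 29.9 and 34.0 CPM in the mechanoreceptors (5.14 ± 0.59, adjusted p = 0.000910). The 20 collagen biosynthesis enzymes held 12 that were higher in the midline, including the collagen chaperone Serpinh1 (log2 fold change 2.54 ± 0.34, adjusted p = 0.00150), and 1, Pcolce2, a relative of Pcolce, was higher in the mechanoreceptors (-2.18 ± 0.46, adjusted p = 0.00869).

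Of 14 other tested elastic fibre and latent TGF-beta binding genes, 6 were called higher in the midline, 0 in the mechanoreceptors, and 8 were not called. The most abundant of the 6 was Hmcn1, a fibulin-related giant matrix protein (log2 fold change 3.01 ± 0.32, adjusted p = 0.000701). Of 6 other tested leucine-rich proteoglycans 5 were higher in the midline, with Prelp at a log2 fold change of 5.73 ± 0.67 (adjusted p = 0.000976) and Tsku at 3.11 ± 0.44 (adjusted p = 0.00175). Of 20 other matricellular genes, 10 were higher in the midline and 3, all of the testican family (Spock1, Spock2 and Spock3), in the mechanoreceptors. Sparcl1, the nearest relative of Sparc and an astrocyte gene, was higher in the midline (3.66 ± 0.36, adjusted p = 0.000541), highest in midline library 5. Of 14 other tested mesenchymal transcription factors 7 were higher in the midline, with the zinc finger factor Zeb2 at 2.40 ± 0.24 (adjusted p = 0.000563), and 2, Tbx2 and Tbx3, in the mechanoreceptors, with Tbx3 at -4.21 ± 0.40 (adjusted p = 0.000457).

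The stretch of 250 bases before the start site is shown for some of the genes whose call held in all 6 fits that left out 1 library. They are those with a single start in the promoter table of RefSeq (build GRCm38.p6). Twist1 among them passed the low-count filter through the midline alone. Its call also ended without midline library 2 and mechanoreceptor library 2 together (adjusted p = 0.0536). Bases run 5′ to 3′ along the gene's strand, and capitals mark a match, on either strand, to any of the motifs searched. The TATA box was searched as TATAAA. The E-box, which basic helix-loop-helix factors such as Twist1 bind, was searched as CANNTG. The core that homeobox factors such as Prrx1 bind was searched as TAATTA. For forkhead factors such as Foxc1 the letters were TAAACA. For the T-box factors they were AGGTGT. No marked matches overlap.
Bgn (chrX:73483351-73483600, forward strand): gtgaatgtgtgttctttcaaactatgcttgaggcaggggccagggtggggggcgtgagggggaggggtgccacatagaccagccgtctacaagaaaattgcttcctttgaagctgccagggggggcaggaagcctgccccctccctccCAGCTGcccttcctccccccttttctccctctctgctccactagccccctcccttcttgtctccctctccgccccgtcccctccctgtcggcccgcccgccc
Prrx1 (chr1:163313651-163313900, reverse strand): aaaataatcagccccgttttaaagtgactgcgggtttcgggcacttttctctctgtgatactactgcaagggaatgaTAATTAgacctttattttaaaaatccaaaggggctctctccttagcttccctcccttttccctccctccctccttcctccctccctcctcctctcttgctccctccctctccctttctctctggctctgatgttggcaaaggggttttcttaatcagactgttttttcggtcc
Sparc (chr11:55420081-55420330, reverse strand): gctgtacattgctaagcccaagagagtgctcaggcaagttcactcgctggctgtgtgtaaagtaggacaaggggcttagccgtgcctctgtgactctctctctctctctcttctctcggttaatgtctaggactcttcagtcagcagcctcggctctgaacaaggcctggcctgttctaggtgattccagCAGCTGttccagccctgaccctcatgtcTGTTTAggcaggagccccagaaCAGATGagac
Thbs2 (chr17:14694263-14694512, reverse strand): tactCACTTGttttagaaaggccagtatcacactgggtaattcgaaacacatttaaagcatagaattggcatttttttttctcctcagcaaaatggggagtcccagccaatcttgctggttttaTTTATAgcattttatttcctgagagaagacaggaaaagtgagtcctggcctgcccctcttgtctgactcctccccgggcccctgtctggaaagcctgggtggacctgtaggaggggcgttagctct
Twist1 (chr12:33957421-33957670, forward strand): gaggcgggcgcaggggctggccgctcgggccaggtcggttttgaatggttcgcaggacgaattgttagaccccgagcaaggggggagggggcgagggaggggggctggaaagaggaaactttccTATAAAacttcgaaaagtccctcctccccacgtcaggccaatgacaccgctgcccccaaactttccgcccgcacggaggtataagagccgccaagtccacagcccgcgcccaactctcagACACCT

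Of the 36 genes, 22 had a promoter in the table and 18 had 1 start. Among these 18 promoters, CANNTG was found in 11, against 66.2% of all 32851 promoters in windows of the same length. TATAAA was found in 4, against 12.4% of all promoters. TAATTA was found in 1, against 4.84%, TAAACA in 1, against 12.0%, and AGGTGT in 1, against 11.8%. The sequences above differ in composition, with a GC share of 64.4% in the Bgn window, 62.4% in Twist1, 54.0% in Sparc, 47.6% in Prrx1 and 46.8% in Thbs2. A match describes the letters only.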

How the data were processed

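The authors deposited raw read counts for each RefSeq transcript in every sample, as whole numbers, with log2 expression values, log2 fold changes and false discovery rate p-values in the same table. Per the submitters' processing notes the build was mm9 and edgeR was used; the aligner and strand are not given in the sources used here. For each symbol the row with the highest summed count was kept. Testing used edgeR 4.0.16 under R 4.3.3 on the deposited counts (filterByExpr with minimum count 10 and minimum total 15, TMM scaling, quasi-likelihood F test of 3 midline against 3 mechanoreceptor libraries, Benjamini-Hochberg adjustment over 15314 genes, threshold 0.05), checked first on simulated data. The simulation gave all genes and both groups the same spread. In the data the common biological coefficient of variation was 0.424 in the midline and 0.268 in the mechanoreceptors. The simulation did not cover that difference. SE is the log2 fold change divided by the root of F. CPM values are TMM-scaled, and 3 counts is the floor. Intervals cover counting error only. DESeq2 1.42.0, limma 3.58.1, other filters, scalings and row choices, and fits without each library were alternatives.

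The genes and lists were chosen with earlier results of these data known. Every gene of the list is named; values in every library are given for the 4 most abundant in each role group and for calls that end when 1 library is left out, and for the others as well, chosen afterwards. From other lists up to 3 called genes of the main direction, 1 of the other and 1 not called were taken by level. Of the 36 genes, 6 had more than 1 transcript row and 9 overlap another RefSeq gene, most of them predicted genes. All 36 had a transcript length in the GENCODE map of RefSeq transcripts. The positions printed are those of the promoter windows alone.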

Additional observations from a re-analysis of the deposited data

How the results depend on the processing

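No member was called higher in the mechanoreceptors under any setting tried. Against 26 calls higher in the midline, DESeq2 gave 27, limma-voom 20, upper-quartile scaling 28, no count filter 29, the stricter filter (50 counts in 3 libraries) 19 of the 23 it left to test, with 0 calls lost among those, summed transcript rows 24, the authors' deposited log2 values 18, and leaving out muscle, keratinocyte, cartilage and erythroid genes 26. Over all genes, calls higher in the midline numbered 2815 with no count filter and 2390 with the stricter filter. They numbered 2853 with summed transcript rows and 2925 without the tissue genes, against 2902 in the main fit. These are counts and not shares, since the settings tested different numbers of genes. Leaving out 1 library each gave 14 (without mechanoreceptor library 8 or 9) to 31 calls (without midline library 3). Over all genes these fits gave 1862 to 2990 calls higher in the midline and 1893 to 3206 higher in the mechanoreceptors. Leaving out midline library 2 and mechanoreceptor library 2 together, an alternative chosen after seeing the data, gave 18 member calls and 1899 calls over all genes, and it turned the log2 fold changes of Fbln5 (-0.19) and Postn (-0.028), which were not called, below 0; the cause was not tested. Over all fits that left out libraries these ran up to 1.58 for Fbln5 and 2.03 for Postn, both without midline library 3. Upper-quartile scaling moved the median log2 fold change of all genes to 0.26, against 0.05, and the split of all calls to 3673 higher in the midline and 2149 higher in the mechanoreceptors, against 2902 and 2886; since this moved all genes towards the midline, it could turn no member round. No paired analysis was made, because the groups came from embryos of different genotype and the labels name no pairs. The groups share replicate number 2 alone, which is not said to mark a pair.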
